A study of Mus musculus with 12 samples.

Results

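The transcripts of 10 outer kinetochore genes were followed in mouse oocytes of 2 genotypes at 3 stages of meiotic maturation. The genes were *Zwint*, *Ska1*, *Ska2*, *Ska3*, *Ndc80*, *Nuf2*, *Spc24*, *Spc25*, *Dsn1* and *Mis12*. They were picked by name, and all 10 were found among the 56691 genes of the deposited table. *Zwint*, *Ska3* and *Spc24* are also discussed by the study from these same libraries. It reports *Zwint* and *Ska3* RNA as raised in the knockout at the last stage. It shows *Spc24* as an example of transcripts methylated only in the knockout that fell during maturation in the wild type. The directions of *Zwint*, *Ska3* and *Spc24* here are thus not independent evidence.

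Each group had 2 libraries of polyadenylated RNA, each from a small pool of denuded oocytes, with synthetic ERCC RNAs added as a spike-in. The groups were WT GV, WT GVBD and WT MII, and KO GV, KO GVBD and KO MII, where KO stands for *Alkbh5*−/−. ALKBH5 is an enzyme that removes methyl groups from adenosines in RNA. GV is the germinal vesicle stage of arrested oocytes, GVBD is germinal vesicle breakdown when meiosis resumes, and MII is metaphase II, where the egg waits for fertilization. Donor females of both genotypes were juvenile C57BL/6 mice primed with gonadotropin. The knockout removed exon 1 of *Alkbh5* by CRISPR-Cas9 in the whole animal, so follicle cells around the growing oocytes lacked the enzyme too. Oocytes were matured in culture and taken by time, and in the study most KO oocytes did not reach the later stages. The libraries labelled KO GVBD and KO MII may thus hold oocytes of earlier stages, and genotype and stage reached cannot be told apart there.

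Kinetochores are protein assemblies on centromeres that hold chromosomes to spindle microtubules. Their outer layer is built on the KMN network, made of the KNL1, MIS12 and NDC80 complexes. The MIS12 complex joins the network to the centromere, the NDC80 complex grips the microtubule, the SKA complex keeps that grip on a shrinking microtubule end, and ZWINT binds KNL1 and links it to the checkpoint proteins of the corona. The study states that new transcription ceases in full-grown oocytes, so transcripts lost during maturation would not be replaced. Many maternal transcripts are degraded before MII. In the study KO GV oocytes were also smaller, and their ratio of non-surrounded to surrounded nucleolus oocytes was raised. The part of these differences in the KO values below was not tested. A change in poly(A) tail length can also alter how much of a transcript is captured in such libraries.

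Total counts ranged from 28557742 to 40247810 per library, of which 221927 to 838409 counts fell on ERCC sequences. All values below called scaled counts are counts multiplied by the mean ERCC count of the 12 libraries over that of the library. *Alkbh5* was lower in KO at each stage, and its log2 fold change was −5.41 at GV, with −6.43 at GVBD and with −5.89 at MII. All 10 oocyte markers had counts in every library. Of the defining granulosa cell markers *Foxl2* had at most 5 counts and *Amh* at most 4 in any library, whereas *Fshr* had 17 to 221. The 12 granulosa and cumulus markers together made up 37.6 to 85.1 CPM, a count scaled to the same total in every library. The 8 blood markers, globins among them, ranged from 4.64 to 5460 CPM. They were at 907 or above in WT GV replicate 2, both WT GVBD, both KO GV and KO MII replicate 1, and at 48.1 or below in the other 6 libraries. Of the blood markers tested, 6 of 7 were called lower from GV to MII in WT, 7 of 8 lower in KO than WT at GVBD and 4 of 7 higher in KO than WT at MII. Of the granulosa markers, *Inha* and *Inhba* were called lower from GV to MII in WT and *Fshr* higher in KO at GVBD. The part of blood and granulosa RNA in the differences below was not tested.

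The 8 members with a RefSeq promoter window, 250 bases before to 50 bases after the start site on GRCm38.p6, were searched on both strands for 2 motifs known from promoters of mitotic genes. These were TTTGAA, the core of the cell-cycle homology region, and CCAAT, the site of the factor NF-Y. *Ska1* and *Spc24* had no window. TTTGAA was found in 3 of the 8 windows (*Ska3*, *Spc25* and *Ndc80*), against 17.9% of all 32851 windows. CCAAT was found in 4 of the 8 (*Zwint*, *Ska2*, *Spc25* and *Mis12*), against 37.4% of all windows, and no match of one motif overlapped a match of the other. The windows of *Nuf2* and *Dsn1* held neither. The 30 bases around each TTTGAA match are shown to set *Ska3* and *Spc25*, whose transcripts fell from GV to MII in WT, beside *Ndc80*, whose transcript did not pass the test. They lie at chr14:57826160-57826189 for *Ska3*, chr2:69206172-69206201 for *Spc25* and chr17:71526811-71526840 for *Ndc80*, all on the minus strand. Capitals mark the motif or, where it lies on the other strand, its reverse complement TTCAAA.
Ska3: gcctgcgcaggaTTCAAAtgtgtagcgcgt
Spc25: ggcggtggagagTTTGAAattgaaagactg
Ndc80: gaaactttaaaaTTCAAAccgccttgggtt
The match began at position −14 from the start site in *Ska3*, at position 25 in *Spc25* and at position 30 in *Ndc80*. The 2 CCAAT matches of *Zwint*, shown because this gene fell most, began at positions −37 and 14 and lie at chr10:72654796-72654825 and chr10:72654846-72654875 on the plus strand.
Zwint before the start site: gaatcgactccggCCAATgaaaagaggtga
Zwint after the start site: acttacccagaaaCCAATctcgacctaggc
*Spc25* held 2 CCAAT matches, *Mis12* 4 and *Ska2* 5. Each motif was found both in members that fell and in members that did not pass the test. A match describes these letters only.

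In the RNA itself, GGACT, the commonest form of the sequence that is methylated on adenosine, was counted in the longest protein-coding GENCODE M21 transcript of each member. *Spc25* held 2.62 per kilobase, at the 95.4 percentile of 21877 protein-coding genes, *Ska1* 1.9, *Ska3* 1.77 and *Zwint* 1.5. *Ndc80* held 1.36, *Mis12* 1.33, *Spc24* 1.18, *Dsn1* 1.14 and *Ska2* 0.988. *Nuf2* had the fewest, at 0.416 per kilobase, and the median of all genes was 1.01. *Spc25*, *Ska1*, *Ska3* and *Zwint*, which held the most per kilobase, all fell from GV to MII in WT. *Spc24* also fell, and held fewer than *Ndc80* and *Mis12*, which did not pass the test. A link between these counts and the falls was not tested.

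All 10 transcripts were detected in all 12 libraries, with 170 counts or more. On the per-length scale, scaled counts per kilobase of exon, *Dsn1* had the highest mean level of the members in every group. Length here is the union of all annotated exons of a gene. It was 6341 bases for *Nuf2* and 6493 for *Ndc80*, whose longest protein-coding transcripts have 2405 and 2201 bases. With transcript lengths these genes would stand higher, so the order between genes rests on this choice. In WT GV it stood at 3236 ± 459 (mean ± SD, n = 2), followed by *Zwint* at 1775 ± 282 and *Nuf2* at 1664 ± 121, which overlapped between libraries. *Spc25* came next at 1195 ± 100.2, then *Mis12* at 710.3 ± 62.2 and *Ndc80* at 569 ± 38.7, each apart from its neighbours. *Spc24* at 394 ± 152, *Ska1* at 387 ± 3.75 and *Ska3* at 363 ± 54.4 overlapped, and *Ska2* was lowest at 226 ± 17.8. In WT MII the order was different. *Zwint* stood at 177 ± 68.4 per kilobase, below *Nuf2* (1338 ± 583), *Ndc80* (539 ± 96.8) and *Mis12* (434 ± 144) in both libraries, while *Spc24* had the lowest mean, 47.3 ± 7.59, and overlapped *Ska3* (54.3 ± 18.6). Together the members took 972 to 1313 CPM in every library.

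**Figure D1:**
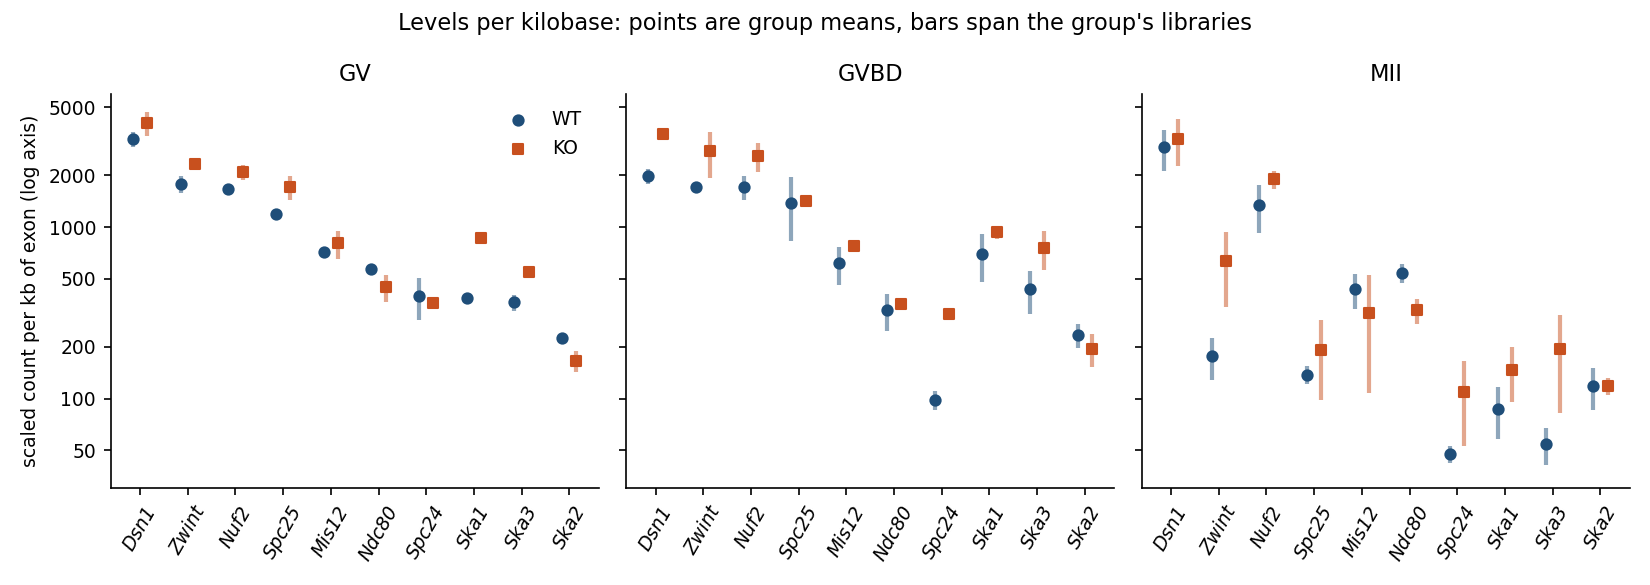
Mean level of each gene, in ERCC-scaled counts per kilobase of exon on a log axis, at GV, GVBD and MII in WT (circles) and KO (squares), with bars that span the 2 libraries of a group. Length is the union of annotated exons, and the order between genes rests on this choice. Genes are in their WT GV order from *Dsn1* (3236) to *Ska2* (226), and at WT MII *Zwint* is at 177 and *Dsn1* at 2914.

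First the change from GV to MII in WT was examined. 5 of the 10 members were called lower at MII by edgeR's quasi-likelihood test, and none higher. A gene was called at a Benjamini-Hochberg adjusted p under 0.05 over all tested genes with at least a 2-fold difference. Among all 18816 genes tested, 30.5% were called lower. The falling members were *Zwint*, *Ska1*, *Ska3*, *Spc24* and *Spc25*. The median log2 fold change was −1.54 over the members and −1.06 over all genes tested. This all-gene shift depends on the spike-in, since scaling by TMM, which centres the bulk of genes, moved it to −0.14. The same 5 members were called under TMM scaling, where 16.2% of all genes were called lower. In bulk samples, fewer transcripts per oocyte and fewer oocytes per tube cannot be told apart by levels alone.

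*Zwint* (ENSMUSG00000019923, GRCm38 chromosome 10, 72654845 to 72674964, plus strand) had scaled counts of 6986 and 8756 in WT GV, then 8026 and 7046 in WT GVBD and finally 998 and 569 in WT MII. The GV and GVBD libraries overlapped, and both MII libraries lay below them. Its log2 fold change from GV to MII was −3.33 ± 0.52 (SE, adjusted p = 3.08e-09), at the 11.8 percentile of all genes tested. In KO the scaled counts were 10083 and 10490.5 at GV, then 15932 and 8507 at GVBD and finally 4131 and 1519.9 at MII. The KO change was −1.86 ± 0.63 (adjusted p = 0.11) and did not pass.

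Of the SKA complex, 2 of the 3 subunit transcripts were called lower at MII in WT. *Ska1* (ENSMUSG00000036223, chromosome 18, minus strand), whose product carries the microtubule-binding domain, had scaled counts of 1025 and 1039 in WT GV, then 2431 and 1280.5 in WT GVBD and finally 312 and 155 in WT MII. Its log2 fold change from GV to MII was −2.15 ± 0.54 (adjusted p = 0.000462). In KO it had 2401 and 2230.0 at GV, then 2713 and 2278 at GVBD and finally 531 and 256 at MII, a log2 fold change of −2.56 ± 0.69 (adjusted p = 0.0647). All 4 MII libraries of *Ska1* lay below all GV and GVBD libraries of either genotype. *Ska3* (ENSMUSG00000021965, chromosome 14, 57806561 to 57826185, minus strand), the subunit that contacts the NDC80 complex, had 879 and 1087 in WT GV, then 1507 and 843 in WT GVBD and finally 183 and 111 in WT MII. Its log2 fold change was −2.74 ± 0.56 (adjusted p = 9.47e-06). In KO *Ska3* had 1373 and 1570.5 at GV, then 2549 and 1526 at GVBD and finally 828 and 224 at MII, and its log2 fold change of −1.49 ± 0.76 did not pass (adjusted p = 0.257). The KO MII libraries of *Ska3* thus differed more from each other than those of WT MII did. *Ska2* (ENSMUSG00000020492, chromosome 11, 87109234 to 87124635, plus strand), the third subunit of the core, had 782 and 699 in WT GV, then 892 and 646 in WT GVBD and finally 490 and 281 in WT MII. In KO it had 623 and 466 at GV, then 778 and 500.1 at GVBD and finally 433 and 344 at MII. Its log2 fold changes from GV to MII were −0.94 ± 0.53 in WT (adjusted p = 0.172) and −0.49 ± 0.69 in KO (adjusted p = 0.702), and the latter was 0.71 with TMM scaling.

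The 4 transcripts of the NDC80 complex parted into 2 pairs. *Spc24* and *Spc25*, whose products form the end of the rod that docks on the MIS12 complex, were called lower at MII in WT. *Ndc80* and *Nuf2*, whose products form the end that binds the microtubule, were not. *Spc24* (ENSMUSG00000074476, chromosome 9, 21755442 to 21760303, minus strand) had scaled counts of 1291 and 736 in WT GV, then 284 and 221 in WT GVBD and finally 136 and 108 in WT MII. It was the member with the lowest WT GVBD level against GV, and its log2 fold change from GV to MII was −3.06 ± 0.56 (adjusted p = 8.75e-07). In KO it had 907 and 939 at GV, then 867 and 736 at GVBD and finally 428 and 135 at MII, a change of −1.71 ± 0.78 (adjusted p = 0.204). *Spc25* (ENSMUSG00000005233, chromosome 2, 69193895 to 69206194, minus strand) had 3584 and 4036 in WT GV, then 6202 and 2652 in WT GVBD and finally 493 and 387 in WT MII. Its log2 fold change was −3.11 ± 0.52 (adjusted p = 5.61e-08). In KO *Spc25* had 6305 and 4608 at GV, then 4519 and 4547 at GVBD and finally 909.7 and 311 at MII, and its change of −3.16 ± 0.71 passed the test (adjusted p = 0.0464).

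*Ndc80* (ENSMUSG00000024056, chromosome 17, 71496100 to 71526857, minus strand) had 3874 and 3518 in WT GV, then 2652 and 1608 in WT GVBD and finally 3945 and 3056 in WT MII. WT MII and WT GV overlapped, and both lay above WT GVBD. In KO *Ndc80* had 3430.1 and 2364 at GV, then 2141 and 2474 at GVBD and finally 2485 and 1759.9 at MII. Its log2 fold change from GV to MII was −0.08 ± 0.47 in WT (adjusted p = 0.935) and −0.45 ± 0.59 in KO (adjusted p = 0.675), and both turned positive with TMM scaling, to 0.87 and 0.73. *Nuf2* (ENSMUSG00000026683, chromosome 1, 169497934 to 169531464, minus strand) had 11095 and 10008 in WT GV, then 12494 and 9127 in WT GVBD and finally 11102 and 5872 in WT MII. In KO it had 14549 and 11887 at GV, then 19556 and 13196 at GVBD and finally 13429.6 and 10588 at MII. Its log2 fold changes were −0.31 ± 0.46 in WT (adjusted p = 0.682) and −0.14 ± 0.51 in KO (adjusted p = 0.894), against 0.57 and 1.05 with TMM scaling.

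The MIS12 complex is represented by 2 of its subunits, *Dsn1* and *Mis12*, and neither was called in either genotype. *Pmf1* and *Nsl1*, its other subunits, are among the other kinetochore genes described last. *Dsn1* (ENSMUSG00000027635, chromosome 2, 156995265 to 157007154, minus strand), the subunit through which Aurora B controls the binding of the complex to the centromere, had 11943 and 9767 in WT GV, then 7350.0 and 5941 in WT GVBD and finally 12411 and 7134 in WT MII. In KO it had 15608 and 11426 at GV, then 12737 and 10759.6 at GVBD and finally 14232 and 7619.8 at MII. Its log2 fold changes from GV to MII were −0.15 ± 0.46 in WT (adjusted p = 0.861) and −0.31 ± 0.55 in KO (adjusted p = 0.766), and with TMM scaling 0.74 and 0.79. *Mis12* (ENSMUSG00000040599, chromosome 11, 71019611 to 71027371, plus strand) had 2265 and 2001 in WT GV, then 2302 and 1387 in WT GVBD and finally 1607 and 998 in WT MII. In KO it had 2855 and 1967 at GV, then 2363 and 2312 at GVBD and finally 1570.2 and 322 at MII. Its log2 fold changes were −0.71 ± 0.49 in WT (adjusted p = 0.294) and −1.35 ± 0.78 in KO (adjusted p = 0.312), and the former was 0.2 with TMM scaling. Exons of *Ska2*, *Ska3* and *Mis12* overlap genes on the other strand, *Gm11491*, *Sap18* and *Derl2*, over 329, 78 and 231 bases. In the library where each was highest, these neighbours had 20, 16758 and 582 counts, in that order. *Ska3* itself had 229 to 1550 counts, so *Sap18* was far more abundant than *Ska3*. The use of strand in counting was not given in the sources used here, so the counts of these members may include reads of their neighbours. The part of this in the values of *Ska3* was not tested.

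**Figure D2:**
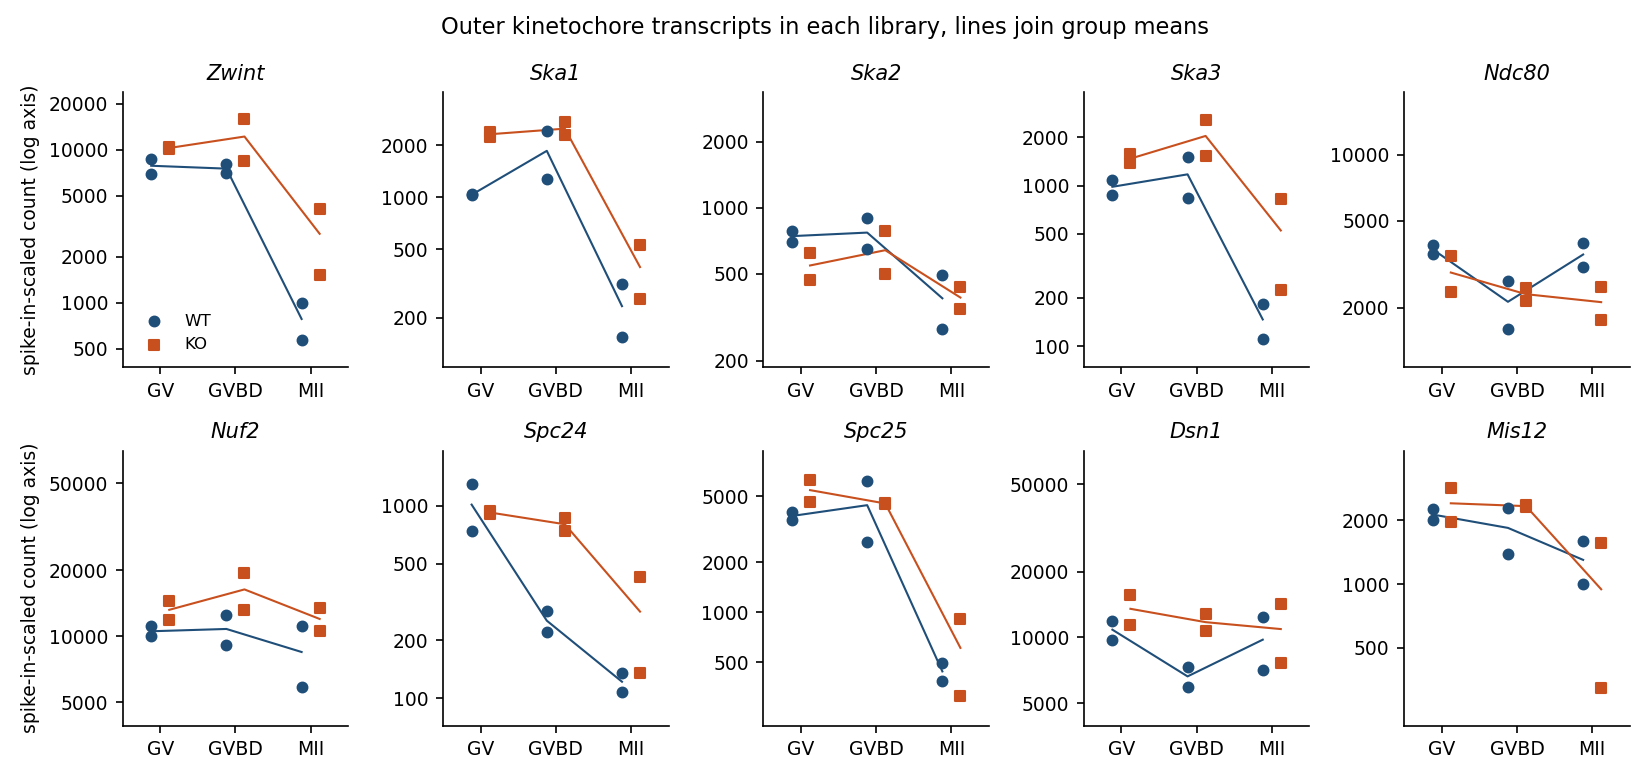
ERCC-scaled counts of each gene in every library on log axes that differ between panels, with WT as circles, KO as squares and lines through group means. *Zwint*, *Ska1*, *Ska3*, *Spc24* and *Spc25* are low at MII (*Zwint* 998 and 569 in WT against 4131 and 1519.9 in KO), while for *Ndc80*, *Nuf2* and *Dsn1* the WT MII libraries overlap the WT GV libraries.

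In KO only *Spc25* of the 10 members was called lower from GV to MII, where 3.28% of 18777 genes were called lower. The 10 members had a median log2 fold change of −1.42 in KO, and all genes −1.17. The difference between the genotypes in this change was tested as an interaction term. No member was called there at an adjusted p under 0.05 by edgeR. None had an unadjusted p under 0.05, against 5.75% of all genes. DESeq2 called no member either. Of 20807 genes, 0% were called by edgeR and 0.721% by DESeq2. The largest member values were 1.47 ± 0.75 for *Zwint* (unadjusted p = 0.075), 1.34 ± 0.87 for *Spc24* and 1.26 ± 0.88 for *Ska3*, each a lesser fall in KO. Without KO MII replicate 1 these values were 0.57, 0.29 and 0.03, and without KO MII replicate 2 they were 2.01, 1.95 and 1.91. The passing of a member in WT and not in KO is therefore not shown to be a difference between them. Single libraries weighed on these calls. In WT 4 to 7 members were called lower when 1 library was left out, where 13.6% to 26% of all genes were, and *Ska1* was lost without WT GV replicate 1 or WT GV replicate 2 (adjusted p of up to 0.13), while *Ska2* and *Mis12* were gained without WT MII replicate 1. In KO 6 members were called without KO MII replicate 1, where 53.9% of all genes were called lower, and 3 without KO MII replicate 2, where 16.5% were. Without KO GV replicate 1 or KO GV replicate 2 there were 0 members, and 0.196% and 0.265% of all genes.

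**Figure D3:**
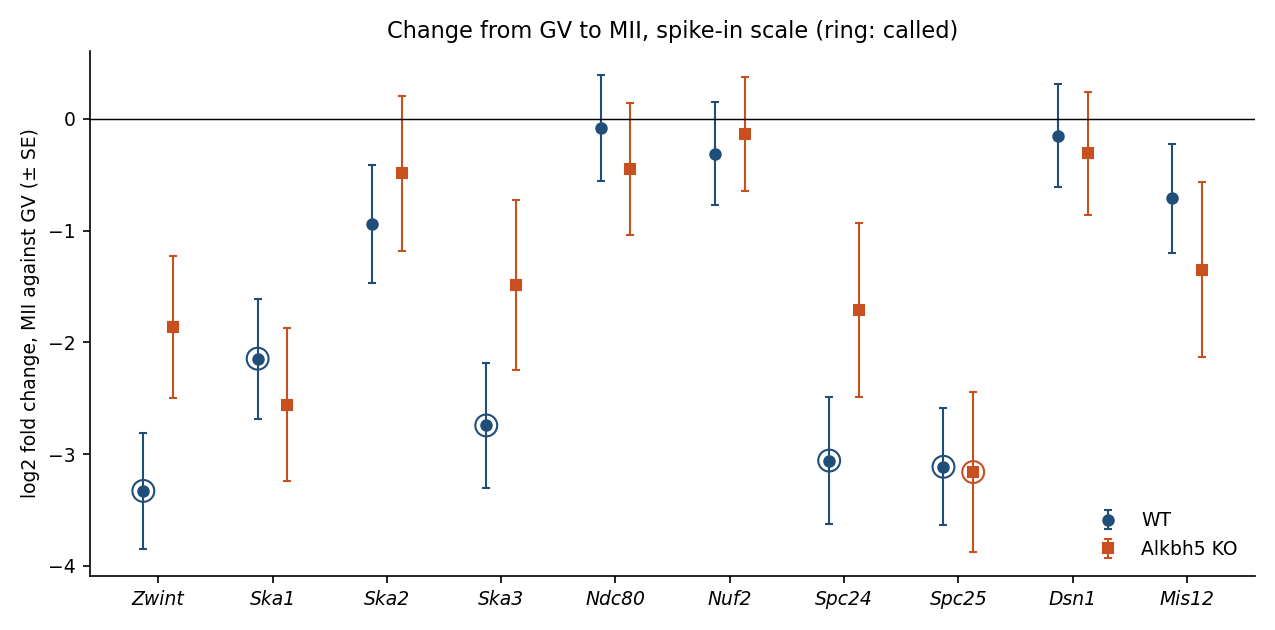
Log2 fold change of MII against GV (points, with SE bars) for each gene in WT (circles) and KO (squares) on the spike-in scale, with rings around called genes. *Spc25* lies at −3.11 in WT and −3.16 in KO, whereas *Zwint* lies at −3.33 and −1.86.

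Ratios between members within a library do not depend on any scaling of libraries. They are given as ratios of counts, not per length, so only their change between libraries is read, and they were not tested. Each ratio joins members whose values are given above, so it restates those values and is no further evidence. The share of other gene pairs that part the genotypes was not computed. The counts of *Spc24* and *Spc25* together were 24.8% to 42.8% of those of *Ndc80* and *Nuf2* together in all 8 GV and GVBD libraries. At MII this ratio was 4.18% and 5.55% in WT and 8.41% and 3.61% in KO. All MII libraries thus lay below all earlier ones, in both genotypes. *Zwint* to *Dsn1* was 58.5% to 125% before MII, 8.04% and 7.97% in WT MII, against 29% and 19.9% in KO MII. For this ratio the genotypes overlapped at GV and at GVBD and were apart at MII. *Ska3* to *Ska2* was 37.2% and 39.7% in WT MII, against 191% and 65.2% in KO MII. It was also apart at GV, with 112% and 155% in WT and 220.5% and 337% in KO, and at GVBD, with 169% and 131% in WT and 328% and 305% in KO. *Spc24* to *Ndc80* was 3.44% and 3.53% in WT MII, against 17.2% and 7.69% in KO MII, and at GVBD 10.7% and 13.8% in WT and 40.5% and 29.7% in KO. At GV this ratio overlapped between the genotypes. Of the counts of all 10 members, *Zwint* took 16% to 24.8% in GV and GVBD libraries, 3.15% and 3.05% in WT MII, against 10.6% and 6.59% in KO MII.

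**Figure D4:**
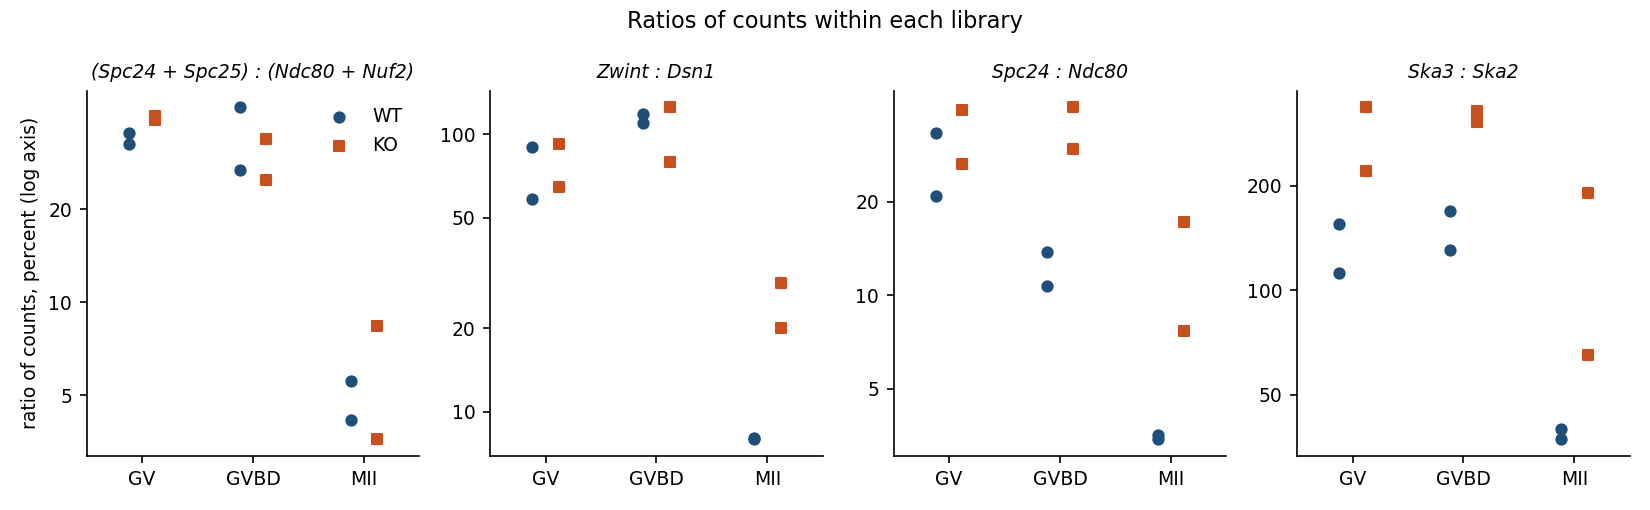
Ratio of the counts of named genes within each library, in percent on log axes, for WT (circles) and KO (squares). The ratio of *Spc24* and *Spc25* to *Ndc80* and *Nuf2* is 24.8% to 42.8% before MII and 3.61% to 8.41% at MII, and *Zwint* to *Dsn1* at MII is near 8% in WT and 19.9% to 29% in KO.

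The GVBD libraries divide this interval. From GV to GVBD no member was called in either genotype, where 0.0511% of 19566 genes in WT and 0.22% of 19064 genes in KO were called. By edgeR 1 member in WT and 0 in KO had an unadjusted p under 0.05, against 6.25% and 7.65% of all genes. The member changes ranged from −2 for *Spc24* to 0.85 for *Ska1* in WT and from −0.33 for *Ndc80* to 0.47 for *Ska3* in KO. *Spc24* in WT had an adjusted p of 0.267 by edgeR and was called by DESeq2, which called 1.9% of all genes. It was also called without a filter on low counts and with at least 10 counts in every library, where 1.8% and 0.993% of all genes were. In KO 0 members were called by any of these, where 1.18%, 1.77% and 0.809% of all genes were. From GVBD to MII 4 members were called lower in WT (*Zwint*, *Ska1*, *Ska3* and *Spc25*), where 27.1% of 19211 genes were called lower. In KO 2 members were called lower (*Ska1* and *Spc25*), where 7.12% of 17966 genes were. The member changes ranged from −3.33 for *Spc25* to 0.72 for *Ndc80* in WT and from −2.89 for *Spc25* to −0.1 for *Dsn1* in KO. With TMM scaling *Ndc80* and *Dsn1* were called higher in WT beside the same 4 lower members, where 25.6% of all genes were called. In KO 4 members were positive with TMM scaling. The WT count was 1 without WT GVBD replicate 1 and 2 without WT MII replicate 2, where 8.61% and 12.4% of all genes were called lower. The KO count was 6 without KO MII replicate 1, where 32.4% of all genes were called lower, and 0 without any other KO library, where at most 0.189% were.

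Next KO was compared with WT at each stage, to ask whether these transcripts differed without the demethylase. No member was called at GV, GVBD or MII by edgeR. Among all genes 0.0977% of 19452 were called at GV, 2.54% of 19462 at GVBD and 0.803% of 17566 at MII. At an unadjusted p under 0.05 there were 3 members at GV (*Ska1*, *Ska3* and *Spc25*), 1 at GVBD (*Spc24*) and 2 at MII (*Zwint* and *Ska3*). Of all genes, 17.9%, 14.9% and 7.32% passed that unadjusted threshold at the same stages. DESeq2 called 1 member at GV (*Ska1*), 1 at GVBD (*Spc24*) and 0 at MII, where it called 3.48%, 4.63% and 1.97% of all genes. The median of all genes was itself above 0 on the spike-in scale, with 0.36 for GV, 0.23 for GVBD and 0.3 for MII, but within 0.04 of 0 with TMM scaling. The member medians were 0.32, 0.51 and 0.49 on the spike-in scale, and −0.04, 0.25 and 0.2 with TMM scaling, so that the GV median turned sign.

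The scaled counts of *Zwint* in both KO libraries were above both WT libraries at all 3 stages. Such a separation held for 42.9%, 30.8% and 21.2% of all genes with a mean count of 10 or more at GV, GVBD and MII. The share over all stages together was not computed. As CPM per kilobase of exon *Zwint* overlapped at GV (37.2 and 49.4 in WT, 44.1 and 52.6 in KO). It also overlapped at GVBD (39.9 and 52.2 against 73.5 and 48.2) and was apart at MII. At MII the log2 fold change of *Zwint* was 1.85 ± 0.84 (adjusted p = 0.5). At GVBD it was 0.7 ± 0.52 (adjusted p = 0.575) and at GV 0.39 ± 0.18 (adjusted p = 0.329). Over the fits that left out 1 library the MII value ran from 0.96 to 2.4. The lowest, 0.96 ± 1.02, came without KO MII replicate 1. That library held 907 CPM of blood markers against 4.64 in KO MII replicate 2, and the part of this in the result was not tested. The MII value lay at the 92.3 percentile of all genes tested. It was 1.5 with TMM scaling, and the adjusted p ranged from 0.0835 to 1 over the other settings.

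In the SKA complex, the scaled counts of *Ska3* were likewise higher in both KO libraries than in both WT libraries at all 3 stages. The shares of all genes are those given for *Zwint*. As CPM per kilobase of exon *Ska3* overlapped at GV (7.67 and 10.1 in WT, 9.84 and 12.9 in KO) and was apart at GVBD and MII. Its log2 fold change was 0.58 ± 0.22 at GV, with an adjusted p of 0.26. At GVBD it was 0.79 ± 0.54, with an adjusted p of 0.53, while MII gave 1.84 ± 0.93, with an adjusted p of 0.664. Over the fits that left out 1 library the MII value ran from 0.61 to 2.49, and the lowest, 0.61 ± 0.99, came without KO MII replicate 1. The adjusted p at MII ranged from 0.149 to 1 over the other settings. Counts of *Ska3* may include reads of *Sap18*, as given above. *Ska1* had its largest value at GV, 1.17 ± 0.19, where the 2 libraries of each genotype lay close together and apart from the other genotype. Its adjusted p was 0.114 at GV by edgeR and 5.3e-06 by DESeq2, and ranged up to 0.999 over the other settings. At GVBD and MII the genotypes overlapped for *Ska1*, with 0.43 ± 0.52 and 0.75 ± 0.91 (adjusted p = 0.773 and 0.9999). *Ska2* differed by −0.45 ± 0.28 at GV, −0.27 ± 0.55 at GVBD and 0.01 ± 0.89 at MII (adjusted p = 0.458, 0.88 and 0.9999). The value of *Ska2* at MII was −0.15 with TMM scaling.

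In the NDC80 complex, *Spc24* differed most at GVBD, with 1.66 ± 0.57 (adjusted p = 0.133) and KO libraries at 867 and 736 against 284 and 221 in WT. It had −0.14 ± 0.32 at GV (adjusted p = 0.87) and 1.21 ± 0.96 at MII (adjusted p = 0.9999). *Spc25* had 0.52 ± 0.21 at GV (adjusted p = 0.277). Its GVBD value was 0.03 ± 0.53 (adjusted p = 0.985), or −0.16 with TMM scaling, and its MII value 0.47 ± 0.87 (adjusted p = 0.9999). *Ndc80* was the member with KO libraries below WT libraries at GV and at MII, with −0.35 ± 0.23 and −0.72 ± 0.79 (adjusted p = 0.477 and 0.9999). At GVBD it had 0.12 ± 0.51 (adjusted p = 0.951), which was −0.12 with TMM scaling. *Nuf2* had 0.33 ± 0.18, 0.6 ± 0.5 and 0.5 ± 0.71 at the 3 stages in order (adjusted p = 0.398, 0.637 and 0.9999), and the GV value was −0.03 with TMM scaling. In the MIS12 complex, *Dsn1* had 0.32 ± 0.22, 0.82 ± 0.5 and 0.16 ± 0.71 (adjusted p = 0.498, 0.473 and 0.9999), and its GV and MII values were −0.05 and −0.1 with TMM scaling. *Mis12* had 0.18 ± 0.24, 0.34 ± 0.51 and −0.46 ± 0.84 (adjusted p = 0.751, 0.822 and 0.9999), and its GV value was −0.19 with TMM scaling.

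**Figure D5:**
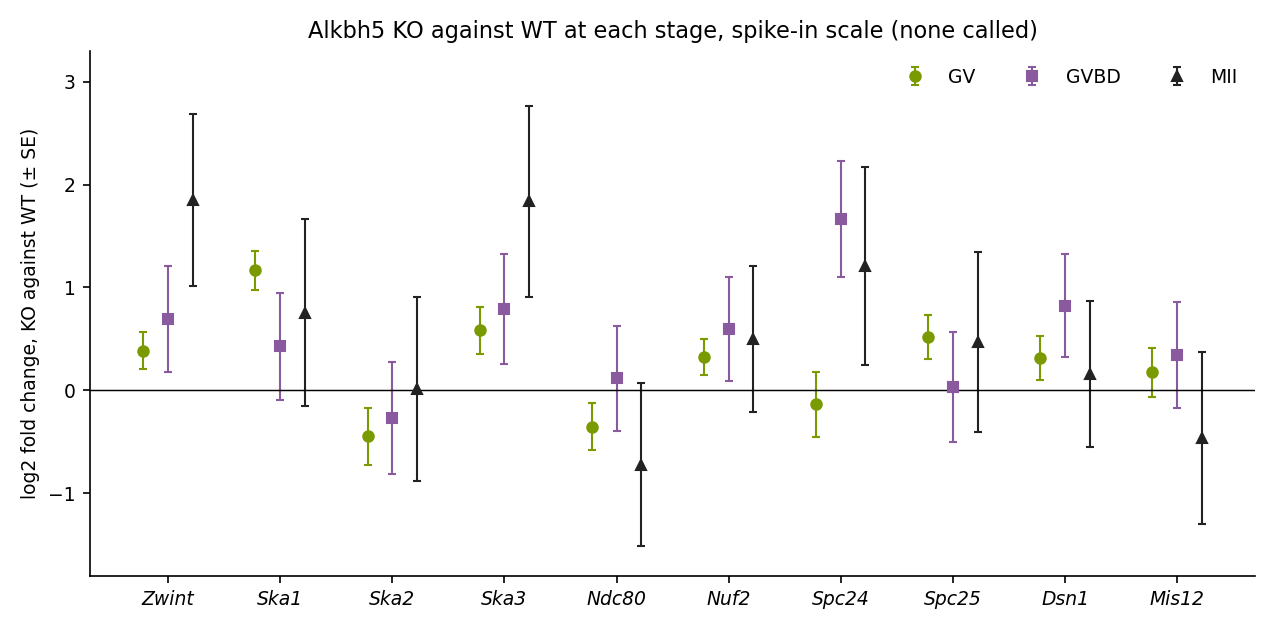
Log2 fold change of KO against WT (points, with SE bars) for each gene at GV, GVBD and MII on the spike-in scale. None was called, *Zwint* and *Ska3* lie highest at MII (1.85 and 1.84) and *Ska1* at GV (1.17) has an SE of 0.19.

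Library overlap was set beside that of all 18794 genes whose mean count was 10 or more. At GV 5 members had both KO libraries above both WT libraries and 2 had both below, against 42.9% and 9.5% of all genes. At GVBD 6 were above and 0 below, against 30.8% and 17% of all genes. At MII 2 were above (*Zwint* and *Ska3*) and 1 below (*Ndc80*), against 21.2% and 9.98%. In a fit over the 3 stages together that allowed for stage, 0 members were called by edgeR, where 1.26% of 22004 genes were called. DESeq2 called 1 member (*Ska3*) and 6.16% of all genes. In the edgeR fit 4 members had an unadjusted p under 0.05, namely *Zwint* (0.97 ± 0.33), *Ska3* (1.06 ± 0.35), *Spc24* (0.92 ± 0.37) and *Ska1* (0.78 ± 0.28). Their adjusted p-values lay between 0.135 and 0.201, and 18.8% of all genes had an unadjusted p under 0.05 in this fit.

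The other 33 listed kinetochore genes were examined in the same fits. From GV to MII in WT, 8 of 21 genes of the centromere and its constitutive network were called lower, against 30.5% of all genes. The lowest was *Cenpx* (−3.18 ± 0.48), a histone-fold protein of the CENP-T group. The others were *Cenpl*, *Cenpm*, *Cenpp*, *Cenps*, *Cenpt*, *Itgb3bp* and *Oip5*. Of the rest of the KMN network, *Pmf1*, a subunit of the MIS12 complex, was called lower (−1.78 ± 0.52), while *Knl1*, the platform that ZWINT binds, had 0.11, and *Nsl1*, also of the MIS12 complex, was not called. None of 6 corona genes was called by edgeR, and 0 had an unadjusted p under 0.05, against 39.1% of all genes. The corona values ranged from −0.97 for *Zw10* to −0.04 for *Cenpe*. Of 3 genes on the microtubule side, *Knstrn* was called lower (−1.75 ± 0.49). In KO none of the 33 was called from GV to MII by edgeR, and 9 had an unadjusted p under 0.05, against 24.6% of all genes. Between KO and WT none of the 33 was called at any stage by edgeR. An unadjusted p under 0.05 was found for 9 genes at GV, 3 genes at GVBD and 0 genes at MII. Of all genes, 17.9%, 14.9% and 7.32% had one at these stages. DESeq2 called 5 of the 21 centromere genes lower from GV to MII in KO, where it called 16.3% of all genes lower. It called 1 of the 21 higher in KO than in WT at GVBD, and none of the 33 between KO and WT at GV or MII. Of all genes it called 4.63% at GVBD, 3.48% at GV and 1.97% at MII. From GV to MII in WT it called 0 of the 6 corona genes, where it called 29.1% of all genes lower. The largest values at MII were 1.26 for *Cenpt* and −0.96 for *Cenps*.

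The genes most like *Zwint* across the 12 libraries were *Rpl23*, *Rpl36a* and *Thyn1*, with Pearson's r of 0.986, 0.984 and 0.982 among 10835 genes on the TMM-scaled log2 scale. Those most like *Ska3* were *Vps9d1*, *Wipi2* and *Abhd12*, with r of 0.984, 0.984 and 0.98. *Zwint* and *Ska3* had r of 0.968 with each other, which put *Zwint* 12th in the order for *Ska3* and *Ska3* 34th in that for *Zwint*. *Ndc80* ran against both, with r of −0.886 with *Zwint* and −0.925 with *Ska3*. These points share the stage difference, and no p-value is attached.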

How the data were processed

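Polyadenylated RNA of 12 libraries was sequenced by the authors. The deposited table holds raw counts per gene, with 92 ERCC sequences, and no normalization. The submitters' processing notes name cutadapt 1.9, HISAT2 2.0.4, StringTie 1.3.4d and the build mm10, and the strand setting of the counting was not given in the sources used here.

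Counts were fitted with edgeR 4.0.16 in R 4.3.3 (glmQLFit, glmQLFTest, two-sided), with library sizes in proportion to summed ERCC counts, as in the study, and genes kept by filterByExpr. P-values were adjusted by the Benjamini-Hochberg method over all tested genes, and SE is the absolute log2 fold change over the root of F. A gene was called at an adjusted p under 0.05 and at least 2-fold. Only the groups compared entered a fit. The code was tested on simulated data. Gene positions and exon lengths are from GENCODE M21. Alternatives were TMM and median-of-ratios scaling, other filters, DESeq2 1.42.0, 1 model of all libraries, a fit with replicate number as a block, and fits that left out single libraries.

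All 10 members are named, with log2 fold changes for KO against WT and MII against GV. For *Zwint* and *Ska3* the 3 genes of most like pattern with a mean of at least 50 counts are named. Other kinetochore genes are given by count, and named where called or at the end of a range. The members and lists were chosen with earlier results of these data known. The labels do not say whether replicates came from separate animals, so p-values measure the spread between these samples, which may be technical. The lowest count of any member was 170, for *Spc24* in WT MII replicate 1. Libraries of a group also differed for this gene, with scaled counts of 428 and 135 in KO MII.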

Additional observations from a re-analysis of the deposited data

How the results depend on the processing

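The 5 members called lower from GV to MII in WT were the same 5 under all alternatives that kept every library. In those fits 15.8% to 34.6% of all genes were called lower. Of all recomputed counts of called members, 129 stayed within 1.5 times the value reported and 28 did not, and of the log2 fold changes 594 kept their direction and side of the threshold, 24 gained a call, 4 lost one and 48 turned sign. Of the 48 that turned sign, 15 did so with TMM scaling, 15 with median-of-ratios scaling and 18 in fits that left out 1 library. Dropping the fold minimum reuses the main fit, so its 50 values could not move. With only ERCC sequences of at least 10 counts in every library, 50 values were also the same. The tally thus leans toward no change. The cause of the moves was not tested.

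KO against WT gave 1 member at GV without a filter, with at least 10 counts in every library and with DESeq2. There 2.27%, 1.25% and 3.48% of all genes were called. At GVBD it gave 1 with DESeq2, where 4.63% of all genes were called. Over all stages it gave 1 without a filter and with DESeq2, where 3.57% and 6.16% were. GVBD against GV in WT gave 1 without a filter, with at least 10 counts and with DESeq2 (1.8%, 0.993% and 1.9% of all genes). MII against GV in KO gave 2 with TMM and with median-of-ratios scaling, where 3.87% and 3.77% of all genes were called lower. It gave 3 without a filter, with at least 10 counts, with DESeq2 and with all 12 libraries in one model. There 9.22%, 17.5%, 16.3% and 17.1% of all genes were called lower. MII against GVBD in KO gave 4 in that one model, where 15.2% of all genes were called lower. Leaving out 1 library gave 0 to 6 members for MII against GV in KO, 0 to 6 for MII against GVBD in KO and 1 to 4 for MII against GVBD in WT.

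Same-numbered replicates were not treated as pairs in the main fits, because the study's methods name no block. Deviations of WT and KO libraries of a number correlated at −0.221 at GV, 0.137 at GVBD and −0.183 at MII. With 2 libraries in each group, these values cannot show whether libraries of the same number were handled together. With the replicate block MII against GV in KO gave 2 members and MII against GVBD in KO 4, where 13.1% and 13.5% of all genes were called lower. WT gave 5 in either change, where 26.2% and 30.4% were. KO against WT gave 0 at each stage with the block, where 0%, 1.1% and 0.0228% of all genes were called at GV, GVBD and MII. The crossed numbers, chosen after seeing the data, also gave 0 at GV and MII, where 1.12% and 0% of all genes were called.

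With TMM and median-of-ratios scaling, in that order, KO against WT turned at GV for *Nuf2* (−0.0315, −0.0305), *Dsn1* (−0.0491, −0.0482) and *Mis12* (−0.193, −0.192), at GVBD for *Ndc80* (−0.116, −0.11) and *Spc25* (−0.156, −0.154), and at MII for *Ska2* (−0.152, −0.148) and *Dsn1* (−0.102, −0.103). MII against GV turned in WT for *Ndc80* (0.868, 0.915), *Nuf2* (0.567, 0.613), *Dsn1* (0.74, 0.786) and *Mis12* (0.196, 0.242), and in KO for *Ska2* (0.711, 0.745), *Ndc80* (0.726, 0.758), *Nuf2* (1.05, 1.08) and *Dsn1* (0.787, 0.815). Leaving out 1 library, KO against WT spanned 0 at GV for *Spc24* (−0.484 to 0.326) and *Mis12* (−0.117 to 0.42), at GVBD for *Ska2* (−0.62 to 0.0173), *Ndc80* (−0.201 to 0.521) and *Spc25* (−0.452 to 0.773), and at MII for *Ska2* (−0.336 to 0.47), *Spc25* (−0.501 to 1.05), *Dsn1* (−0.359 to 0.615) and *Mis12* (−2.02 to 0.27). MII against GV spanned 0 in WT for *Ndc80* (−0.275 to 0.0939), *Nuf2* (−0.846 to 0.0733) and *Dsn1* (−0.606 to 0.193), and in KO for *Nuf2* (−0.32 to 0.023) and *Dsn1* (−0.827 to 0.0745). In those fits the lone library was assumed to vary like the other group.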
